A study of Mus musculus with 26 samples.

Results

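Respiratory complex I (NADH:ubiquinone oxidoreductase) is built from subunits encoded in the nucleus and in the mitochondrial genome, and the genes examined here are those whose symbol starts with Nduf. The 3 deposited tables each list 39 of them, among 8576 transcripts in the table of the GS LRRK2 TG comparison (GS table), 8576 in that of GS/DA LRRK2 TG (GS/DA table) and 9561 in that of LRRK2 KO (KO table). By role the 39 are 34 subunits of complex I, 4 assembly factors, and Ndufa4, which keeps its old symbol but is now assigned to complex IV. Of the subunits, 7 are the nuclear core subunits, which hold the redox cofactors, and 27 are accessory subunits. The tables do not list Ndufb1, Ndufb4 or Ndufb8 of the distal membrane arm, nor the assembly factors Ndufaf5 to Ndufaf8, nor Ndufa4l2. None of the 7 mitochondrially encoded core subunits is listed either, under any of the 14 symbols searched, so everything below concerns nuclear genes.

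The study compared ribosome footprints and RNA-Seq from the caudate putamen of LRRK2 mouse models, and the labels call the region striatum. All mice were C57BL/6 and are labelled 3 months old, and each sample was a pool of 3 mice of mixed sex. GS LRRK2 TG mice carried G2019S LRRK2 and GS/DA LRRK2 TG mice carried G2019S/D1994A LRRK2, a kinase-dead form. In both lines, which hold many transgene copies, a Tet-off system under CaMKII-tTA drove the transgene in forebrain neurons once doxycycline was withdrawn after weaning. Their comparison group was non-TG control mice, and LRRK2 KO mice were compared with their own WT group. The labels name 3 footprinting and 3 RNA-Seq libraries of the non-TG control, 2 and 2 of GS LRRK2 TG, 2 and 2 of GS/DA LRRK2 TG, and 3 and 2 each of WT and LRRK2 KO. Besides these there is 1 footprinting library from the ventral midbrain of WT and 1 of LRRK2 KO, which no table holds and which were not used. The footprinting values of WT and LRRK2 KO each rest on 2 libraries, recovered as described below, so not all 3 striatal ones of either group were used.

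Complex I takes electrons from NADH, passes them along a chain of iron-sulfur clusters to ubiquinone, and uses the energy to pump protons across the inner mitochondrial membrane. Its matrix arm holds the N module, where NADH is oxidized, and the Q module, where ubiquinone is reduced, and its membrane arm has a proximal and a distal part. Neurons rely on it for most of their ATP, and inhibitors of complex I such as rotenone damage dopamine neurons, which is why the complex is studied in Parkinson's disease.

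Each table gives a normalized mean of reads in the coding sequence (CDS) for each group and assay, with no spread. For 10 of the 12 columns of means, the whole reads of the 2 libraries behind each mean could be solved for. Per column this gave 98.1 to 99.8% of transcripts, against 0.0523 to 4.22% when every value was first moved by a fixed amount. In the GS table the 2 columns of its control could not be solved (0%), so that comparison has single values for its genotype but only means for its control. Recovered libraries carry no replicate number. Below, the library with fewer reads is given first, values are normalized reads per library, and a p-value measures only the spread between these samples.

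Lrrk2 itself was read first as a check of the labels. Its normalized footprinting mean was 5186 in GS LRRK2 TG (libraries 7052 and 3320) against 2524 in the control, and for GS/DA LRRK2 TG the libraries held 4766 and 7267 against 1224 and 1445 in the non-TG control. In LRRK2 KO the Lrrk2 footprints were 150 and 102 against 690 and 400 in WT. Every transgenic library was thus above the mean of its control and both knockout libraries were below WT, with log2 changes of the means of 1.04, 2.17 and -2.12. The GS table's control mean of 2524 was above the 1335 of the GS/DA table's control, although its normalized footprints were fewer in all (11853719 against 14963980). As the GS table's control has no single libraries, whether each of them lay below the 3320 of GS LRRK2 TG could not be read. Lrrk2 RNA-Seq did not follow in the transgenic lines (log2 changes -0.16 and -0.09): the GS/DA LRRK2 TG libraries held 5038 and 404 and the non-TG control libraries 560 and 5233, so that each group had a high and a low library. In LRRK2 KO the RNA-Seq values were 270 and 423 against 733 and 1278, a log2 change of -1.54.

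Complex I genes were among the more abundant transcripts of this tissue. Per kb of CDS, their median was 4533 normalized footprints in the non-TG control of the GS table, 5768 in that of the GS/DA table and 1507 in WT, against 388, 488 and 114 over all transcripts. These medians lay at percentiles 94.3, 94.3 and 94.9 of all transcripts. In the same order, RNA-Seq medians per kb were 5043, 5318 and 1969 against 468, 500 and 193 over all transcripts. Together the 39 genes took 0.785, 0.799 and 0.706% of all normalized footprints and 0.843, 0.881 and 0.650% of RNA-Seq. The tables were normalized separately, so levels are compared between genes within a table and not between tables.

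The 34 subunits were also close to each other. In each of the 3 controls, 32 of the 34 (94.1%) had footprints per kb within 2-fold of the subunits' median, while 43.2, 43.0 and 41.4% of all transcripts lay within 2-fold of that of all transcripts. For RNA-Seq per kb the same count was 30 (88.2%), 29 (85.3%) and 32 (94.1%), against 45.5, 46.0 and 46.5%. A similar level is what a complex with mostly 1 copy of each subunit would need, but footprints measure ribosome occupancy and not protein, and protein was not measured here. A reason for the closeness was not tested, and it was not particular to complex I. In the GS table's control the SD of footprints per kb was 35.9% of the mean over the 34 subunits. Over nuclear subunits of complexes II, III, IV and V it was 19.1, 41.4, 45.6 and 40.1%. The medians by role, in footprints per kb in the GS/DA table's control, were 4919 for core subunits, 5519 for the N module's accessory subunits, 5578 for the Q module's, 8253 for the proximal arm's and 6410 for the distal arm's. In WT the same medians were 1208, 1244, 1461, 2022 and 1608, so the proximal membrane arm stood highest in both.

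The assembly factors stood apart from the subunits they help to join. Ndufaf1 is a chaperone of the membrane arm, Ndufaf2 holds the place that the subunit Ndufa12 takes in the finished complex, and Ndufaf3 and Ndufaf4 act together early in assembly. Their median was 597, 790 and 202 footprints per kb in the 3 controls, so that the subunits' median was 8.10, 7.87 and 7.72 times as high. Ndufaf3 was the highest of them, with 1520, 1981 and 459 footprints per kb, and Ndufv3 was the only subunit below it. Ndufaf1 was the lowest, with 380, 466 and 133. In RNA-Seq per kb the subunits' median was 8.14, 6.76 and 7.62 times that of the assembly factors. The 3 lowest genes by the footprinting mean itself, not divided by length, were likewise Ndufaf4 (299, 395 and 89.9), Ndufaf2 (315, 418 and 117) and Ndufaf1 (377, 463 and 132).

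At the other end was Ndufa4, a small subunit of cytochrome c oxidase. It had 28105, 36836 and 7008 footprints per kb in the 3 controls, above every complex I subunit in each. Its RNA-Seq per kb was 14464, 15362 and 7271. Nuclear subunits of complex IV had a median of 20337 footprints per kb in the GS/DA table's control and 5034 in WT, so Ndufa4 stood nearer to them than to the subunits of complex I. By the footprinting mean itself, Ndufa4 (6998, 9172 and 1745) was highest, and Ndufs1 (4063, 5342 and 1560), the core subunit with the most iron-sulfur clusters, was among the 3 highest.

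Among the subunits, the lowest footprints per kb belonged to Ndufv3, an accessory subunit beside the NADH site, with 1082, 1386 and 383. The length used is the longest annotated CDS, 1407 bases for Ndufv3, and a shorter form would give more reads per kb. The highest were Ndufs5, a proximal arm subunit facing the intermembrane space, with 8712 and 11684 in the transgenic tables' controls, and Ndufa1, a small X-linked membrane subunit, with 2694 in WT. In RNA-Seq per kb, Ndufs1 was lowest in all 3 controls (1405, 1777 and 562). Ndufa5 of the Q module was highest in the first 2 (12896 and 16878) and Ndufa1 in WT (3751).

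**Figure D1:**
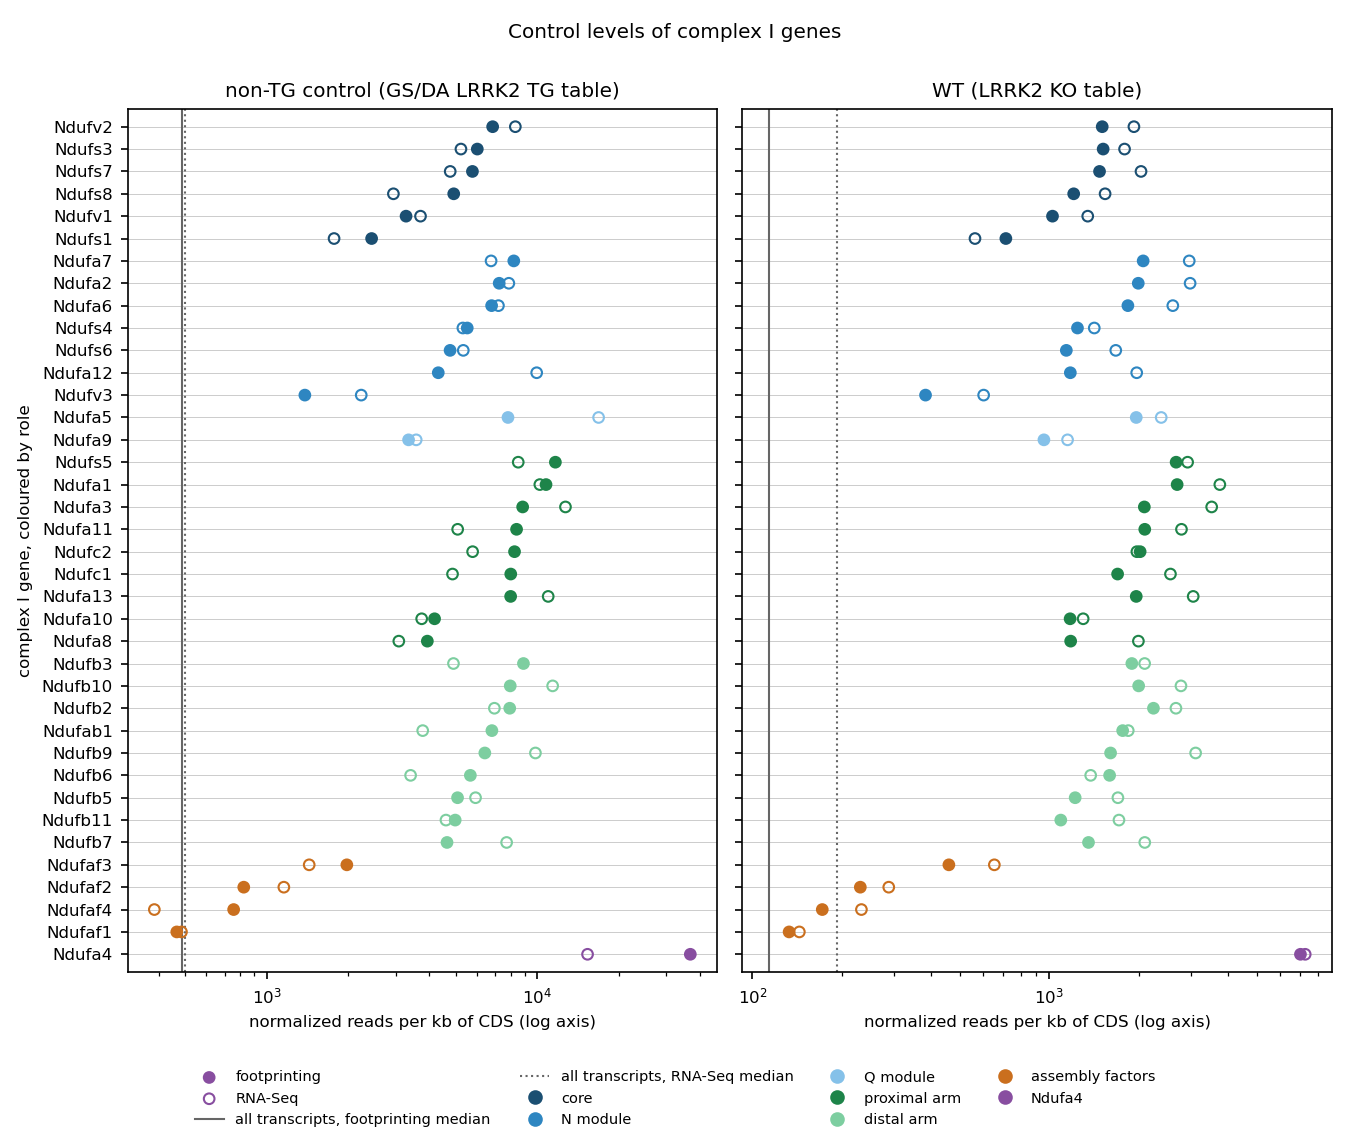
Levels of complex I genes in the non-TG control of the GS/DA table (left) and in WT (right), as normalized reads per kb of CDS on a log axis. Filled circles are footprinting and open circles RNA-Seq, colours give the role, and vertical lines mark the medians of all transcripts, 488 and 500 on the left and 114 and 193 on the right.

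Translation efficiency (TE) is the log2 ratio of the footprinting mean to the RNA-Seq mean of a group. Over complex I genes the median control TE was -0.13, 0.08 and -0.43 in the controls of the 3 tables, and over all transcripts it was -0.17, 0.04 and -0.64. In the transgenic tables' controls 21 of the 39 lay above the median of all transcripts, and in WT 32 did. This differed with how much of a CDS occurs elsewhere in the genome, as described below. The 23 genes with under 5% of windows elsewhere had medians of -0.32, -0.09 and -0.46, with 10, 9 and 19 above the median of all transcripts. The other 16 had 0.03, 0.24 and -0.42, with 11, 12 and 13 above it. The SD across complex I genes was 0.50, 0.58 and 0.27, against 0.85, 0.84 and 0.72 across all transcripts. By role, median TE in the GS/DA table's control was 0.20 for core subunits, -0.12 for the N module's accessory subunits, -0.60 for the Q module's, 0.35 for the proximal arm's, 0.11 for the distal arm's and 0.20 for the assembly factors. In WT the same medians were -0.35, -0.55, -0.27, -0.48, -0.47 and -0.38, so the order of roles was not shared.

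Among single genes, Ndufa4 had the highest TE in both transgenic tables' controls, 0.96 and 1.26, followed by Ndufaf4 (0.71 and 0.97) and Ndufb3 (0.55 and 0.86), a small distal arm subunit. Lowest there were Ndufa12, which joins the matrix arm late, at -1.25 and -1.21, and Ndufa5 at -1.09 and -1.11. The third lowest was Ndufb9 (-0.83), which carries an LYR motif, in the first and Ndufb7 (-0.73), which faces the intermembrane space, in the second. Ndufa4, Ndufaf4, Ndufb3, Ndufa12 and Ndufa5 are all among the 16 genes with 5% or more of windows elsewhere. In these 2 controls the SD of TE was 0.61 and 0.71 over the 16, against 0.39 and 0.46 over the other 23. How reads matching several places were handled is unknown, so this ranking is uncertain. In WT the highest were Ndufs1 (0.35), Ndufb6 (0.21) and Ndufc2 (0.04), the last 2 being membrane arm subunits. The lowest in WT were Ndufb9 (-0.95), Ndufa8 (-0.76), another intermembrane space subunit, and Ndufa3 (-0.75), a small membrane subunit. Between the GS/DA table's control and WT, the Spearman correlation of TE was 0.52 over the 39 complex I genes and 0.74 over 8514 transcripts. That of footprints per kb was 0.96 over the 39 and 0.97 over 8249 transcripts, and that of RNA-Seq per kb 0.83 and 0.94. These correlations describe genes of 2 sets of libraries and not replicates.

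**Figure D2:**
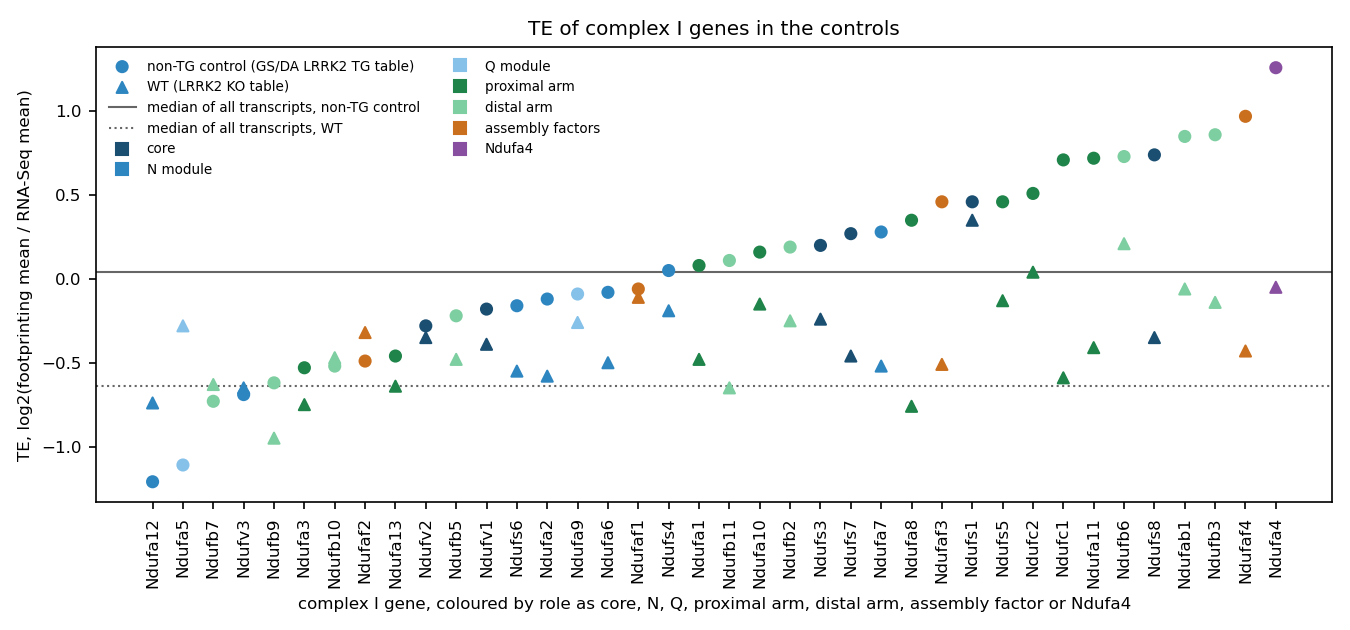
TE of complex I genes in the non-TG control of the GS/DA table (circles) and in WT (triangles), ordered by the circles and coloured by role. Lines mark the median TE of all transcripts, 0.04 (solid) and -0.64 (dotted).

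In the 3 groups of the transgenic tables that have single libraries, the 2 RNA-Seq libraries differed from each other far more than the footprinting libraries did, and this bears on their RNA-Seq and TE values. Over complex I genes, the SD of the log2 difference between the 2 RNA-Seq libraries was 1.03 in GS LRRK2 TG, 0.89 in the non-TG control and 1.02 in GS/DA LRRK2 TG, and over all transcripts it was 1.69, 1.43 and 1.68. Footprinting libraries of the same groups gave 0.27, 0.23 and 0.21 over complex I genes. In the KO table the RNA-Seq SDs over complex I genes were 0.38 in WT and 0.34 in LRRK2 KO. Over complex I genes the difference between RNA-Seq libraries (deeper minus shallower) had a Spearman correlation with the GC content of the CDS of -0.58 in GS LRRK2 TG, -0.49 in the non-TG control and 0.54 in GS/DA LRRK2 TG, and over all transcripts of -0.79, -0.78 and 0.80. Ndufs1 shows the size of it: its RNA-Seq values were 1241 and 4263 in GS LRRK2 TG, 2126 and 5635 in the non-TG control and 6024 and 1813 in GS/DA LRRK2 TG. Each group had a low and a high library, and the order was turned in GS/DA LRRK2 TG.

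The transcripts of complex I genes are short, with short leaders. Their median CDS is 471 bases, against 1461 over all transcripts of the transgenic tables and 1452 in the KO table, and their median annotated 5′UTR is 94.0 bases against 173. The deposited folding energy of the 5′UTR, where a more negative value means more stable predicted structure, had a median of -18.5 kcal/mol against -91.2 in the transgenic tables and -90.4 in the KO table. Over -20 kcal/mol lay 20 of the 39 (51.3%), against 1038 of 8576 transcripts (12.1%). Under -250 kcal/mol, the range in which the study placed complex 5′UTRs, lay 1 of the 39 (2.56%), against 1150 (13.4%). That gene was Ndufa13, also known as GRIM-19, at -335 kcal/mol. The distal arm's and the N module's accessory subunits had medians of -9.50 and -8.10, core subunits -35.1 and the assembly factors -70.0 kcal/mol. Lengths are those of the GENCODE transcript with the longest CDS and, among equals, the longest 5′UTR. The folding energies are the authors', from the UCSC database, so length and energy need not describe the same leader. Ndufv2, for example, has 94 bases and -135 kcal/mol.

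Within the list, folding energy and TE were barely ordered together. The Spearman correlation of folding energy with control TE was -0.07, -0.08 and -0.13 over complex I genes in the 3 controls and 0.13, 0.14 and 0.22 over all transcripts. With the TE difference between genotype and control it was -0.11, 0.09 and 0.11 over the 39 in the GS, GS/DA and KO tables, and -0.08, 0.08 and 0.08 over all transcripts. With only 1 of the 39 under -250 kcal/mol, these genes say little about complex 5′UTRs.

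Some of these genes share the letters around their start codon. The TISU element (translation initiator of short 5′UTR) directs initiation on very short leaders and is known from genes of energy metabolism. It was searched here, on the strand of the transcript only, as AA, any base and then ATGGCGGC, with the ATG at the annotated start codon. It stood there in 8 of the 39 (20.5%), against 143 of 8011 transcripts (1.79%) in the transgenic tables and 145 of 8954 (1.62%) in the KO table. The shorter ATGGCGGC, which the longer motif contains, stood there in 11 (28.2%) against 318 (3.97%) and 336 (3.75%), the further 3 genes being Ndufa13, Ndufb5 and Ndufb11. Among the 8 are the core subunits Ndufs3 and Ndufs7 and the accessory subunit Ndufa9 of the Q module, and Ndufa2, Ndufa6, Ndufs4 and Ndufs6 of the N module. To show how alike these start sites are, 6 of them follow, 5′ to 3′ from 9 bases before the A of the start codon, with the motif in capitals:
Ndufs3: ctaaggAACATGGCGGCggctgc
Ndufs7: gaggccAAGATGGCGGCgctggc
Ndufa9: tgggagAAGATGGCGGCcgccgt
Ndufa6: ctcggcAAGATGGCGGCcgcggc
Ndufs4: tacaggAAGATGGCGGCggtctc
Ndufs6: accggcAAGATGGCGGCggtgct

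All but Ndufs3 have AAG before the ATG, and the bases outside the motif differ. The sequences were read from the GENCODE transcripts of the NCBIM37 assembly (mm9). On the minus strand the start codons lie at chr2:90744802-90744804 (Ndufs3) and chr6:126799128-126799130 (Ndufa9). Also on the minus strand are those at chr15:82184656-82184658 (Ndufa6), chr13:115178262-115178264 (Ndufs4) and chr13:73465892-73465894 (Ndufs6), while that of Ndufs7 lies on the plus strand at chr10:79712221-79712223.

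Genes with the longer motif had a median 5′UTR of 50.5 bases against 99.0 for the other complex I genes, and the 11 with the shorter motif 92.0 against 96.5. The annotated 5′UTRs of Ndufs3 and Ndufs7, 180 and 248 bases in the GENCODE transcripts used, are not short. With the longer motif, the median control TE was -0.26, -0.09 and -0.47 in the 3 tables, against -0.11, 0.16 and -0.41 for the 31 without it. The footprinting changes of these 8 genes had medians of -0.04 in GS LRRK2 TG, -0.05 in GS/DA LRRK2 TG and -0.05 in LRRK2 KO, and those of the others 0.01, -0.06 and -0.02. A match is a description of letters and was not tested as a site.

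The 39 genes lie on 15 chromosomes, with at most 5 on any of them (chromosome 17) and 2 on the X chromosome (Ndufa1 and Ndufb11). Several have processed copies in the genome, which matters because the sources do not say how reads matching several places were handled. Of the 28-base windows of the CDS, 100% occur elsewhere in the genome for Ndufab1, the mitochondrial acyl carrier protein, 82.3% for Ndufs5, 76.6% for Ndufa12, 69.8% for Ndufs3 and 54.9% for Ndufb3. In all, 16 genes had 5% or more of their windows elsewhere and 23 had less, and the levels and TE of the 16 are uncertain to that extent.

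In GS LRRK2 TG, the median log2 change in footprints was 0.00 over the 39 complex I genes, as over all transcripts (0.00), with 19 above 0 (4394 of 8576 transcripts). It was -0.14 without the shallower GS LRRK2 TG library, with 7 genes 1.2-fold lower, and 0.08 without the deeper, with 7 genes 1.2-fold higher. Counts with 1 library left out have no share of all transcripts beside them and are not read as a result about these genes. In RNA-Seq the median was 0.05 against -0.02 over all transcripts, with 25 above 0 (3796), and the median TE difference was -0.06 against 0.02, with 11 above 0 (4699). With the GS LRRK2 TG libraries averaged as log2 values the medians were -0.04 in RNA-Seq and 0.01 in TE. The control stayed a mean of reads, and a mean of log2 values never exceeds the log2 of the mean. RNA-Seq changes could therefore only fall, and this setting says nothing on direction. The RNA-Seq median was 0.14 or 0.20 with a single GS LRRK2 TG library, and the TE median ran from -0.19 to 0.04 with 1 library left out. As the control has no single libraries, these are log2 ratios of group means without a test, and a gene counts as higher or lower at 1.2-fold or more. With both libraries, no complex I gene was 1.2-fold higher in footprinting (2.86% of all transcripts) and none was 1.2-fold lower (2.74%). In RNA-Seq 2 were higher (3.53%) and 0 lower (13.8%), and in TE 1 was higher (16.0%) and 3 were lower (4.43%). With 1 library left out, 12 to 15 were higher and 8 to 15 lower in RNA-Seq, and 1 to 14 higher and 3 to 15 lower in TE. As this is bulk tissue, fewer cells of a type and less RNA per cell cannot be told apart.

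Core subunits at the NADH site lay near their control in GS LRRK2 TG. Ndufv1, which holds the flavin that accepts electrons from NADH, had a control mean of 3676 footprints and GS LRRK2 TG libraries of 3337 and 3434. Both lay below the control mean, at a log2 change of -0.12. Ndufv2, which carries an iron-sulfur cluster beside it, had 3895 against 4564 and 3322, and Ndufs1 4063 against 4612 and 3461. For these 2 genes the control mean lay between the libraries (changes 0.02 and -0.01).

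Core subunits on the way to ubiquinone were alike. Ndufs7, which holds the last iron-sulfur cluster before ubiquinone, had a control mean of 3059 and libraries of 2704 and 2907. Both lay below the control mean (-0.12). Ndufs3 (3678 against 3337 and 3561, -0.09) was also lower in both, and Ndufs8 (2464 against 2692 and 2129, -0.03), which carries further iron-sulfur clusters, in 1 of them. Over the 7 core subunits the median changes were -0.03 in footprinting, with 1 above 0, 0.03 in RNA-Seq (lowest Ndufs1 at -0.16) and -0.12 in TE (highest Ndufs1 at 0.15, lowest Ndufv1 at -0.24).

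Accessory subunits supplied most extremes of the GS LRRK2 TG comparison. By footprinting the 3 highest were Ndufv3 (0.12), Ndufc2 (0.11) and Ndufa3 (0.11) and the 3 lowest Ndufb2 (-0.18) and the core subunits Ndufs7 (-0.12) and Ndufv1 (-0.12). Ndufb2, a small distal arm subunit, had 1866 and 1652 footprints against a control mean of 1988. Ndufv3 had 1599 and 1714 against 1523. Both libraries thus lay below the control mean for Ndufb2 and above it for Ndufv3, by less than 1.2-fold on average.

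By RNA-Seq the 3 highest were Ndufa3 (0.33), Ndufa12 (0.28) and Ndufb9 (0.25). Ndufa3 had RNA-Seq values of 4150 and 4922 against a control mean of 3614, Ndufa12 had 3475 and 5417 against 3651, and Ndufb9 had 5560 and 5904 against 4829. Both libraries were above the control mean for Ndufa3 and Ndufb9, and 1 of them for Ndufa12. The 3 lowest were Ndufa1 (-0.21), Ndufab1 (-0.21) and Ndufaf4 (-0.16). Ndufab1 had 2273 and 934 RNA-Seq reads against a control mean of 1851, a high and a low library, while its footprints were 2698 and 2690 against 2550.

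By TE difference the highest were Ndufab1 (0.29), Ndufa1 (0.17) and Ndufa2 (0.16), a thioredoxin-like subunit of the N module, and the lowest Ndufb7 (-0.28), Ndufa12 (-0.28) and Ndufa13 (-0.27). Ndufb7 had footprints of 1460 and 1488 against 1600 and RNA-Seq values of 3062 and 3260 against 2819. Its footprints were below and its RNA-Seq above the control mean in both libraries, which was not so for Ndufa12 and Ndufa13.

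By role, the N module's 7 accessory subunits had median changes of 0.02 in footprinting, 0.13 in RNA-Seq and -0.05 in TE, and the Q module's 2 had 0.00, 0.05 and -0.05. For the 9 of the proximal arm the medians were -0.02, 0.11 and -0.13, and for the 9 of the distal arm 0.02, 0.05 and 0.00. The assembly factors had -0.04, -0.02 and -0.03, from Ndufaf1 (0.05) to Ndufaf3 (-0.11) in footprinting. Ndufa4 had 8970 and 5984 footprints against a control mean of 6998 (0.10), RNA-Seq at -0.02 and TE at 0.12. No role had a median 1.2-fold from its control in any of the 3 measures.

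In GS/DA LRRK2 TG, the kinase-dead line, most complex I genes lay slightly below their control in both assays, and none passed a test. Its comparison shares non-TG control samples with the GS LRRK2 TG comparison, so the values stand side by side and are not counted together. Changes here are limma estimates over single libraries, on log2 of normalized reads plus 10. The median change over the 39 was -0.05 in footprinting (all transcripts -0.01), with 8 above 0 (3991 of 8364 transcripts), and -0.10 in RNA-Seq (all transcripts 0.01), with 4 above 0 (4419). The median TE difference was 0.05 (all transcripts -0.02), with 33 above 0 (3751). Direction turned with some libraries left out: the footprinting median was 0.06 without the deeper control library. Without the shallower GS/DA LRRK2 TG library the RNA-Seq median was 0.04. Both groups differ between libraries in a shared way, as described below, so leaving 1 out sets unlike libraries against each other. These values therefore do not settle the direction. With 1 library left out, the TE median ran from -0.11 to 0.23. The median standard error of a single complex I gene was 0.14 in footprinting, 0.54 in RNA-Seq and 0.54 in TE.

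With limma, 0 complex I genes passed an adjusted p of 0.05 in footprinting (0% of 8364 transcripts), and 0 had an unadjusted p under 0.05 (1.70%, 142 transcripts). In RNA-Seq, 0 passed limma's adjusted threshold (0%) and 0 the unadjusted p (0%), and the same held for TE by limma, adjusted (0%) and unadjusted (0%). The lowest unadjusted limma p among them was 0.250 in footprinting (Ndufaf2), 0.629 in RNA-Seq (Ndufa12) and 0.625 in TE (Ndufa9), each with 2 libraries per group. A count of 0 does not show that nothing differed. This limma fit had no term for libraries that resemble each other, so contrasts within a group entered its error. In RNA-Seq these contrasts were nearly mirrored in both groups (Spearman -0.977, shallower matched with deeper). In each measure, fewer transcripts had an unadjusted limma p under 0.05 than chance alone would give, so the fit was too strict. For TE it took footprinting and RNA-Seq libraries as independent, although each lysate was split for both. At 1.2-fold, 0 were higher (2.97%) and 0 lower (2.59%) in footprinting, 0 higher (5.11%) and 2 lower (3.31%) in RNA-Seq, and 0 higher (2.21%) and 0 lower (3.71%) in TE.

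Of the core subunits at the NADH site, Ndufv1 had 4924 and 4226 footprints in the non-TG control and 4953 and 4382 in GS/DA LRRK2 TG, and Ndufs1 had 5042 and 5643 against 5054 and 5465. Ndufv2 had 4503 and 5732 against 4270 and 5308. The groups overlapped for all 3, with changes of 0.03 (SE 0.13), -0.02 (SE 0.12) and -0.09 (SE 0.17).

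At the ubiquinone end, Ndufs3 had 4929 and 4594 footprints in the non-TG control and 4681 and 4098 in GS/DA LRRK2 TG. Ndufs7 had 4011 and 3777 against 3891 and 3640, and Ndufs8 2830 and 3457 against 2887 and 3389. Again the groups overlapped for each of them, and Ndufs3 had the lowest change of the core subunits (-0.12, SE 0.12, unadjusted limma p 0.355). Over the 7 core subunits the medians were -0.05 in footprinting, with 2 above 0, -0.08 in RNA-Seq, with 0 above 0, and 0.05 in TE, with 7 above 0.

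**Figure D3:**
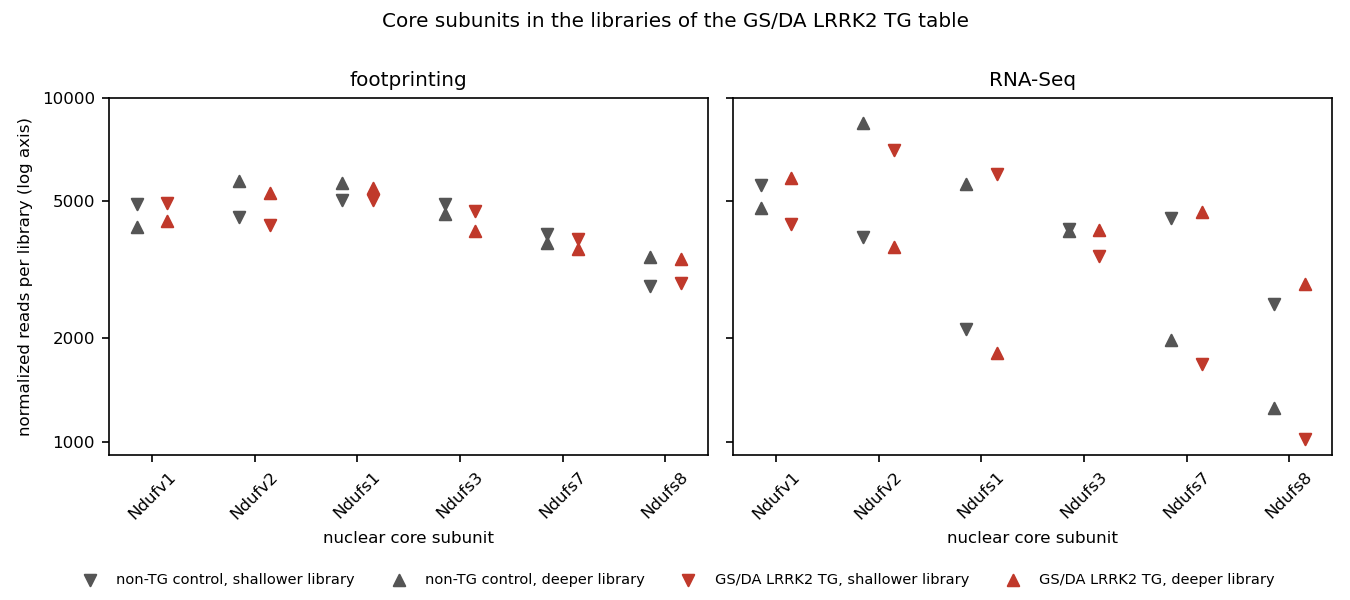
Normalized reads of nuclear core subunits in the libraries of the GS/DA table, on a log axis, for the non-TG control (grey) and GS/DA LRRK2 TG (red). Triangles pointing down are the library with fewer reads and triangles pointing up the deeper library. For Ndufs1 the footprinting values lie between 5042 and 5643 while the RNA-Seq values run from 1813 to 6024.

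Assembly factors gave the ends of the GS/DA LRRK2 TG footprinting list. Ndufaf2 had 385 and 451 footprints in the non-TG control and 367 and 369 in GS/DA LRRK2 TG, and Ndufaf1 had 385 and 541 against 420 and 564. Ndufaf2 was lower in both genotype libraries than in either control library (change -0.17, SE 0.14), while the groups overlapped for Ndufaf1 (0.09, SE 0.22). After Ndufaf1 the highest were Ndufa8 (0.07) and Ndufa3 (0.06), and after Ndufaf2 the lowest were Ndufc2 (-0.16) and Ndufs4 (-0.13). Ndufc2 had 2674 and 3318 against 2311 and 3054, and Ndufs4, a late-joining N module subunit whose loss in mice models Leigh syndrome, 2577 and 3251 against 2448 and 2837. Both overlapped.

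The 3 largest RNA-Seq changes of the GS/DA LRRK2 TG comparison were smaller than the differences between libraries of a group. Ndufa7, a matrix arm subunit, had 2792 and 1832 RNA-Seq reads in the non-TG control and 1215 and 2866 in GS/DA LRRK2 TG, and Ndufaf2 had 307 and 868 against 666 and 273. Ndufa12 had 3375 and 5593 against 4038 and 3370. These were the 3 lowest (-0.28, SE 0.63; -0.27, SE 0.82; -0.24, SE 0.45), and for each the libraries of both groups lay apart and the groups overlapped. With libraries paired by resemblance, as described below, the 2 pairs gave 0.04 and -0.59 for Ndufa7. They gave -0.16 and -0.38 for Ndufaf2 and 0.00 and -0.47 for Ndufa12. The 3 highest were Ndufaf4 (0.06), Ndufaf3 (0.06) and Ndufa8 (0.04). In TE the highest were Ndufa7 (0.22, SE 0.65), Ndufa2 (0.19, SE 0.54) and Ndufa9 (0.17, SE 0.34), and the lowest Ndufaf4 (-0.18, SE 0.87), Ndufaf3 (-0.17, SE 1.15) and Ndufb3 (-0.08, SE 0.51).

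The accessory subunits of the N module had medians of -0.05, -0.12 and 0.07 in footprinting, RNA-Seq and TE in GS/DA LRRK2 TG, and those of the Q module -0.03, -0.14 and 0.11. Proximal arm subunits had -0.02, -0.09 and 0.04, distal arm subunits -0.06, -0.11 and 0.05, and the assembly factors -0.12, 0.00 and -0.04. For Ndufa4 the footprints were 7439 and 10905 in the non-TG control and 7406 and 10430 in GS/DA LRRK2 TG, which overlap (-0.04), with RNA-Seq at -0.10 and TE at 0.07.

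The labels name no batch, but each genotype library can be paired with the control library that it resembles by how the 2 libraries of each group differ, and the direction counted in both pairs. In footprinting of GS/DA LRRK2 TG, 2 complex I genes were higher in both pairs (28.3% of transcripts), Ndufaf1 and Ndufv1, and 21 were lower in both (32.2%). The median over the 39 was -0.01 in the first, with 17 above 0, and -0.11 in the second, with 3 above 0, while over all transcripts it was -0.01 in each. Of all transcripts, 48.1 and 48.0% were above 0 in these footprinting pairs. In RNA-Seq, 0 were higher in both pairs (21.7%) and 10 were lower in both (16.0%), with medians of 0.06 (26 above 0) and -0.28 (3 above 0). Over all transcripts the RNA-Seq medians were -0.01 (49.1% above 0) and 0.05 (56.6% above 0). Paired the other way, the medians were 0.09 and -0.18 in footprinting and -0.26 and 0.00 in RNA-Seq, so the values of single pairs depend on the pairing.

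In LRRK2 KO, the limma change over the 39 had a median of -0.02 in footprinting (all transcripts 0.02), with 18 above 0 (5207 of 9527 transcripts), of -0.01 in RNA-Seq (all transcripts 0.00), with 19 above 0 (4841), and of -0.04 in TE (all transcripts 0.01), with 15 above 0 (4999). With 1 RNA-Seq library left out, the RNA-Seq median was 0.13 (without the shallower WT library), -0.09 (the deeper WT), -0.10 (the shallower LRRK2 KO) or 0.14 (the deeper LRRK2 KO). The TE median was then -0.14, 0.05, 0.10 or -0.15. Here too, leaving 1 out sets unlike libraries against each other, and neither direction is settled. The median standard errors were 0.21, 0.29 and 0.35. With limma, 0 complex I genes passed an adjusted p of 0.05 in footprinting (0% of 9527 transcripts) and 0 an unadjusted p of 0.05 (0.0735%, 7 transcripts). In RNA-Seq limma passed 0 adjusted (0%) and 0 unadjusted (0.0735%, 7 transcripts), and in TE 0 adjusted (0%) and 0 unadjusted (0.0210%, 2 transcripts). This fit also had no term for resembling libraries and took the 2 assays as independent. Contrasts within WT and within LRRK2 KO went together (Spearman 0.762 in footprinting and 0.684 in RNA-Seq). Chance alone would give more transcripts under an unadjusted limma p of 0.05, so here too the fit was too strict.

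At 1.2-fold in LRRK2 KO, 0 complex I genes were higher (5.40%) and 1 was lower (4.86%) in footprinting, 2 were higher (10.8%) and 0 lower (10.3%) in RNA-Seq, and 1 was higher (14.6%) and 3 were lower (13.1%) in TE. Higher in both pairs were 8 in footprinting (24.3%) and lower in both 10 (19.4%), while in RNA-Seq 10 were higher in both (24.5%) and 5 lower in both (23.6%). Medians of the pairs were -0.05 and 0.02 in footprinting and -0.02 and 0.03 in RNA-Seq. Paired the other way they were 0.00 and -0.09 in footprinting, and in RNA-Seq -0.18 (10 above 0) and 0.27 (33 above 0). Over all transcripts this other RNA-Seq pairing gave medians of 0.01 (50.4% above 0) and -0.01 (49.2% above 0).

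At the NADH site, the core subunit Ndufv1 had 1435 and 1425 footprints in WT and 1395 and 1423 in LRRK2 KO, and Ndufv2 1242 and 1010 against 1143 and 1141. Ndufs1 had 1908 and 1212 against 1858 and 1410. Both LRRK2 KO values of Ndufv1 were below both WT values by very little (-0.02, SE 0.17), and the groups overlapped for Ndufv2 (0.03, SE 0.20) and Ndufs1 (0.09, SE 0.31).

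Toward ubiquinone, Ndufs3 had 1226 and 1178 footprints in WT and 1116 and 1296 in LRRK2 KO. Ndufs7 had 755 and 1237 against 802 and 1054, and Ndufs8 729 and 815 against 690 and 741. The groups overlapped for all 3 (0.00, -0.07 and -0.11). Over the 7 core subunits the medians were -0.02 in footprinting, -0.01 in RNA-Seq and -0.02 in TE, the ends of TE being Ndufs1 (0.23, SE 0.43) and Ndufs8 (-0.11, SE 0.32).

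Ndufaf2 was the only gene past 1.2-fold in LRRK2 KO footprinting. It had 129 and 105 footprints in WT and 88.1 and 89.0 in LRRK2 KO, and 135 and 157 RNA-Seq reads in WT against 150 and 161. Both LRRK2 KO footprinting values lay below both WT values, while RNA-Seq overlapped. The footprinting change was -0.36 (SE 0.23, unadjusted limma p 0.179, the lowest of the 39) and the TE difference -0.45 (SE 0.32, unadjusted limma p 0.203). It is 1 of the least abundant complex I genes, with 63 reads in the shallower LRRK2 KO footprinting library. The subunit that takes its place, Ndufa12, had 622 and 437 footprints in WT and 553 and 498 in LRRK2 KO, which overlap (0.01, SE 0.25).

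The other ends of the footprinting list in LRRK2 KO were Ndufb7 (-0.24), Ndufa2 (-0.21), Ndufaf1 (0.18), Ndufb5 (0.14), a distal arm subunit, and Ndufa4 (0.12). Ndufb7 had 514 and 607 footprints in WT and 494 and 448 in LRRK2 KO, so both LRRK2 KO values were below both WT values (SE 0.20, unadjusted limma p 0.286). Ndufa2 had 526 and 670 against 445 and 586 and Ndufb5 742 and 651 against 802 and 735. These 2 overlapped, as did Ndufaf1 with 163 and 102 against 169 and 129, and Ndufa4 with 1620 and 1870 against 1620 and 2200.

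In RNA-Seq, Ndufa3 had 1036 and 1097 reads in WT and 1523 and 1161 in LRRK2 KO, and Ndufaf1 had 125 and 161 against 183 and 164. Both were above WT in both libraries, with changes of 0.32 (SE 0.28, unadjusted limma p 0.305) and 0.27 (SE 0.27, unadjusted limma p 0.359). The third highest was Ndufb9 (0.24), whose groups overlapped at 1432 and 1925 against 2029 and 1896. Lowest were Ndufab1 (-0.20), Ndufb3 (-0.17) and Ndufa10 (-0.16), a proximal arm subunit related to nucleoside kinases. In Ndufab1 the WT libraries held 1108 and 629 and the LRRK2 KO libraries 837 and 633, which overlap.

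TE in LRRK2 KO was highest for Ndufa4 (0.27, SE 0.55), Ndufs1 (0.23) and Ndufab1 (0.22, SE 0.42), and after Ndufaf2 it was lowest for Ndufa3 (-0.37, SE 0.35) and Ndufb9 (-0.28, SE 0.32). Ndufa4 had RNA-Seq values of 2437 and 1184 in WT and 1895 and 1222 in LRRK2 KO, which overlap. By role the medians for footprinting, RNA-Seq and TE were -0.04, -0.03 and -0.06 in the N module, 0.07, 0.03 and 0.04 in the Q module, -0.06, 0.01 and -0.10 in the proximal arm and -0.04, -0.01 and 0.02 in the distal arm. The assembly factors had 0.06, 0.17 and -0.13, and all 4 had RNA-Seq changes above 0, from Ndufaf1 (0.27) to Ndufaf2 (0.08).

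**Figure D4:**
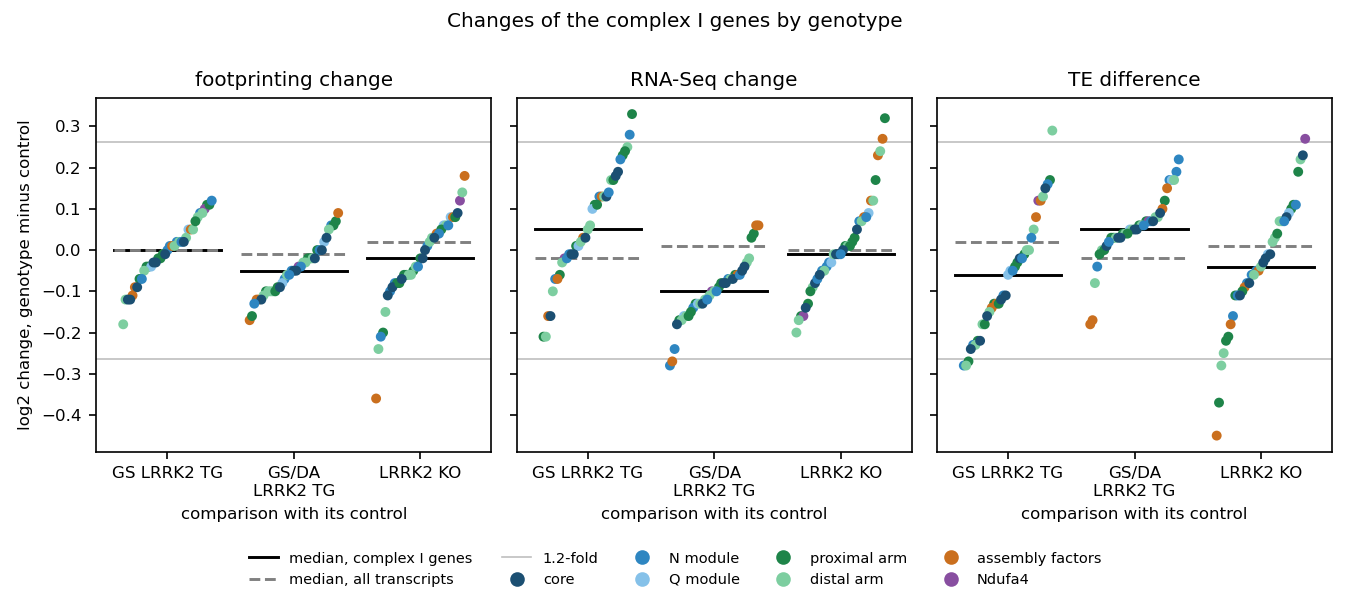
Log2 changes of the 39 complex I genes in each comparison, coloured by role, for footprinting, RNA-Seq and TE. Black lines are the medians of the 39, which run from -0.10 to 0.05, dashed lines those of all transcripts, and grey lines mark 1.2-fold.

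Some of the named genes can be set side by side. Ndufaf2, lowest in footprinting in 2 comparisons, was at 0.01 in GS LRRK2 TG, -0.17 in GS/DA LRRK2 TG and -0.36 in LRRK2 KO, and Ndufb7 footprints were at -0.12, 0.05 and -0.24. Ndufa3, highest in RNA-Seq in 2 comparisons, was at 0.33, 0.03 and 0.32. The GS LRRK2 TG values are ratios of means without a test and the others limma estimates that passed no threshold, and the differences between the models were not tested.

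Assembly factors of complex I that carry other symbols were read beside these. Of 13 looked up by symbol, 8 are in the transgenic tables and 9 in the KO table, and their control median was 515 footprints per kb in the GS/DA table and 135 in WT, below the 790 and 202 of Ndufaf1 to Ndufaf4. In GS LRRK2 TG their median changes were -0.03 in footprinting, -0.08 in RNA-Seq and 0.03 in TE, from Tmem126b (0.03) to Tmem126a (-0.19) in footprinting. In GS/DA LRRK2 TG they were -0.05, 0.03 and -0.09, from Acad9 (0.11) to Foxred1 (-0.18) in footprinting. In LRRK2 KO they were 0.02, -0.05 and 0.09, from Tmem126a (0.26) to Nubpl (-0.08) in footprinting. Acad9 and Tmem126b work with Ndufaf1, and Nubpl and Foxred1 act in cluster insertion and late assembly.

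The other respiratory complexes, of which the tables list 38 nuclear subunits, took 1.79, 1.82 and 1.65% of footprints in the 3 controls. In GS LRRK2 TG their median changes were 0.00 in footprinting, 0.02 in RNA-Seq and -0.01 in TE, from Cox6c (0.20) to Cyc1 (-0.25) in footprinting. In GS/DA LRRK2 TG, where 33 of them could be fitted, the medians were -0.01, -0.07 and 0.04, and in LRRK2 KO 0.03, -0.07 and 0.12. In LRRK2 KO footprinting 30 of these 38, 18 of the 39 complex I genes and 5207 of 9527 transcripts were above 0, and whether these shares differ was not tested. By complex, the LRRK2 KO footprinting medians were 0.02 for the 4 of complex II (highest Sdhb at 0.10), 0.12 for the 8 of complex III (Uqcr10 at 0.19), 0.04 for the 10 of complex IV (Cox7b at 0.12) and 0.02 for the 16 of complex V (Atp5l at 0.14). In GS LRRK2 TG the same medians were -0.04, 0.05, 0.03 and 0.00, and in GS/DA LRRK2 TG 0.04, 0.00, -0.08 and -0.04.

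Mitochondrial ribosomal proteins (63 listed), which make the mitochondrially encoded subunits, had footprinting, RNA-Seq and TE medians of 0.00, 0.02 and -0.06 in GS LRRK2 TG. In GS/DA LRRK2 TG they were -0.06, -0.07 and 0.03 and in LRRK2 KO 0.02, 0.00 and 0.03, with Mrpl55 lowest in the footprints of both (-0.48 and -0.95) but highest in those of GS LRRK2 TG (0.39). Of 10 regulators of mitochondrial biogenesis 9 are listed, among them Ppargc1a and Nrf1. Their medians were 0.05, -0.27 and 0.24 in GS LRRK2 TG, where Tfb2m had the lowest RNA-Seq change (-0.63) and the highest TE difference (0.71). In GS/DA LRRK2 TG they were -0.09, 0.00 and -0.09, lowest in footprinting for Ppargc1a (-0.25), and in LRRK2 KO 0.08, 0.09 and 0.07, highest in footprinting for Nrf1 (0.35).

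Complex I genes are expressed in every cell type, so markers of the cells in the dissected tissue were read too. Markers of striatal spiny neurons, 9 of 11 listed with Ppp1r1b the most abundant, had summed footprints 0.11 lower on the log2 scale in GS LRRK2 TG (96552 against 104441), and 112529 against 140104 in GS/DA LRRK2 TG (-0.32) and 31119 against 30002 in LRRK2 KO (0.05). For the 4 of them recovered in every library of the GS/DA table, the summed footprints were 12538 and 12030 in the non-TG control and 11638 and 8988 in GS/DA LRRK2 TG, which do not overlap. Markers of cortical excitatory neurons differed more. Of 6, the transgenic tables list 3 (Slc17a7, Neurod6 and Tbr1), with Slc17a7 the most abundant, and in the GS/DA table their summed footprints were 1056 and 1630 in the non-TG control libraries and 2574 and 4104 in GS/DA LRRK2 TG. The 2 groups did not overlap, and the means gave a log2 change of 1.31. In GS LRRK2 TG the same sum was 2302 and 431 against a control mean of 1612 (-0.24), and in LRRK2 KO, for all 6 markers, 2209 and 2442 against 2016 and 2925 in WT (-0.09).

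Choroid plexus markers, 2 of 6 listed with Ttr the most abundant, had summed footprints of 1239 and 682 in GS LRRK2 TG against a control mean of 4239 (-2.14). In the GS/DA table they were 17613 and 1489 in the non-TG control and 1440 and 5525 in GS/DA LRRK2 TG. These groups overlapped, and 1 control library carried the log2 change of -1.46 between the means (3483 against 9551), whose direction turns without it (3483 against 1489). In LRRK2 KO they were 72.7 and 224 against 143 and 155 in WT, which overlap (0.00). Blood markers, 3 of 6 with Hba-a2 the most abundant, were at -0.09 and -0.32 in the transgenic lines. In LRRK2 KO they were 1537 and 2716 against 1364 and 5375 in WT, which overlap (-0.66), and without the deeper WT library the direction turns (2126 against 1364). Astrocyte markers (6 of 6, Aldoc the most abundant) were at 0.06, 0.08 and -0.02. Another list of cell markers was read and is not reported here. Microglia markers, 5 of 7 in the transgenic tables and 6 in the KO table, with Csf1r the most abundant, were at 0.10, 0.12 and 0.18. In LRRK2 KO they were 178 and 773 against 181 and 659 in WT, which overlap. Without the deeper LRRK2 KO library the direction turns (178 against 420). That sets the library paired by resemblance with the WT library at 181 against the mean of both WT libraries. The GS LRRK2 TG libraries (2965 and 2222) lay on either side of the control mean of 2428, and the groups of the GS/DA table overlapped. None of the 5 endothelial markers is listed. These markers thus differed between samples, also within a group, and their part in the small changes of the complex I genes was not tested.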

How the data were processed

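Ribosome footprints and RNA-Seq of mouse caudate putamen were taken from the 3 tables the authors deposited. Per the submitters' processing notes, base calls came from CASAVA 1.8, reads were aligned to mm9 with TopHat2 2.0.11 and Bowtie2 2.2.2, and DESeq 1.20 normalized them. The authors counted reads in the CDS, discarded transcripts under 128 reads and deposited a group mean per assay, a signal with no SD. They also deposited TE, its difference and a z score, which were not used, and a folding energy of the 5′UTR, which was.

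The means were solved for the reads of each library (tested on simulated data). They held 7304101 to 18219101 footprints in the transgenic tables, 2865921 to 6040935 in the LRRK2 KO table and 3126212 to 14500251 RNA-Seq reads. Complex I genes held 64804 to 180975 and 20649 to 45196 of these footprints per library and 22302 to 156508 RNA-Seq reads, with at least 50 reads for any gene (Ndufaf4, WT RNA-Seq). limma 3.58.1 (R 4.3.3, eBayes with trend) was fitted to log2 of normalized reads plus a pseudocount of 10 over 8364 transcripts (GS/DA LRRK2 TG) and 9527 (LRRK2 KO), each assay alone, and with genotype, assay and their interaction for TE. p-values were adjusted by Benjamini-Hochberg over all of them. Ratios of group means, without a test, stand for GS LRRK2 TG, since its control has no single libraries. Lengths, GC content and start codons came from GENCODE on NCBIM37 for 96.9% and 96.7% of transcripts. Scripts used Python 3.11.15, pandas 2.3.3, numpy 2.4.6, scipy 1.17.1, statsmodels 0.14.6 and matplotlib 3.10.9.

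Named are core subunits, in each comparison the 3 highest and 3 lowest by each change, the 3 highest and lowest by control TE and control footprinting mean, Lrrk2, and the ends of each list; some of these are not reported here. The members and the lists were chosen with earlier results of these data known. Alternatives covered the pseudocount, filters of 2 and 4 times the read minimum, scaling, means, single libraries, a replicate block, trends on CDS GC content and length, 1 transcript per symbol, the make-up of the list, fold thresholds and limma's settings. Chosen after seeing the data were the GS LRRK2 TG libraries set against the non-TG control libraries of the other table, and the list without genes with 5% or more of windows elsewhere.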

Additional observations from a re-analysis of the deposited data

How the results depend on the processing

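Of 160 alternative values of the medians over the 39 complex I genes, 159 moved by less than the SD between libraries, a wide measure beside medians this small (for footprinting, RNA-Seq and TE, LRRK2 KO 0.0826, 0.157 and 0.177; GS LRRK2 TG 0.275, 0.103, 0.293; kinase-dead GS/DA LRRK2 TG 0.202, 0.274, 0.340). The exception was the GS LRRK2 TG RNA-Seq median of 0.05, which was 0.20 without the deeper GS LRRK2 TG RNA-Seq library and 0.14 without the other; the cause was not tested. Over alternatives that keep every library, the footprinting, RNA-Seq and TE medians ran from -0.05 to 0.00, -0.04 to 0.11 and -0.13 to 0.01 in GS LRRK2 TG, from -0.06 to -0.01, -0.15 to -0.07 and 0.03 to 0.10 in GS/DA LRRK2 TG, and from -0.04 to -0.01, -0.03 to 0.04 and -0.07 to -0.02 in LRRK2 KO. With 1 library left out, GS LRRK2 TG medians ran from -0.14 to 0.08 in footprinting and -0.19 to 0.04 in TE. Those of GS/DA LRRK2 TG ran from -0.14 to 0.06, -0.25 to 0.04 and -0.11 to 0.23. In LRRK2 KO they ran from -0.09 to 0.00, -0.10 to 0.14 and -0.15 to 0.10. In the GS/DA LRRK2 TG and LRRK2 KO comparisons, both groups differ between libraries in a shared way. Leaving 1 out then sets unlike libraries against each other, which alone can move a median. In GS LRRK2 TG it sets 1 library against a control mean that could not be split. These ranges therefore do not settle the sign of a median. Under all 86 alternatives of limma's count, 0 complex I genes passed.

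Counts at 1.2-fold are small and 232 of 356 alternatives kept them within 1.5 times. At 1.1-fold GS LRRK2 TG had 1 gene lower in footprinting, 11 higher and 4 lower in RNA-Seq and 4 higher and 13 lower in TE. GS/DA LRRK2 TG then had 2 lower in footprinting, 10 lower in RNA-Seq and 6 higher and 2 lower in TE, and LRRK2 KO 2 higher and 5 lower in footprinting, 5 higher and 5 lower in RNA-Seq and 4 higher and 8 lower in TE. At 1.5-fold every count was 0. Centred on the median of all transcripts, 4 were higher in GS LRRK2 TG RNA-Seq, and 1 in RNA-Seq and 0 in TE of LRRK2 KO. With the CDS GC trend subtracted, 4 were higher in GS LRRK2 TG RNA-Seq, 1 lower in GS/DA LRRK2 TG RNA-Seq and 0 higher in LRRK2 KO TE. With the CDS length trend subtracted, RNA-Seq had 1 higher and 1 lower in GS LRRK2 TG, 0 lower in GS/DA LRRK2 TG and 4 higher in LRRK2 KO, with 0 higher in LRRK2 KO TE. With a mean of log2 values for its libraries, GS LRRK2 TG had 1 higher and 5 lower in RNA-Seq and 5 higher in TE, and its medians were -0.04 in RNA-Seq and 0.01 in TE. Its control stayed a mean of reads, so this setting could only lower the RNA-Seq changes and does not test their direction.

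Against the control libraries recovered from the GS/DA table, an alternative chosen after seeing the data, GS LRRK2 TG had 5 higher and 3 lower in RNA-Seq and 6 lower in TE, with medians of -0.05, 0.07 and -0.12. Without genes with 5% or more of windows elsewhere, also chosen after seeing the data, GS LRRK2 TG had 1 higher in RNA-Seq and 0 higher and 1 lower in TE, GS/DA LRRK2 TG 1 lower in RNA-Seq and LRRK2 KO 0 higher in TE. Without the assembly factors, 1 was lower in GS/DA LRRK2 TG RNA-Seq, 0 lower in LRRK2 KO footprinting and 1 higher in its RNA-Seq, and without Ndufa4 0 were higher in LRRK2 KO TE. With group means of at least 2 times the read minimum, LRRK2 KO had 0 lower in footprinting and 1 higher in RNA-Seq, and the same at 4 times, where GS/DA LRRK2 TG had 1 lower in RNA-Seq. Libraries scaled to their totals gave 1 higher in GS/DA LRRK2 TG TE and 1 higher in LRRK2 KO RNA-Seq. Ratios of group means gave 1 lower in GS/DA LRRK2 TG TE and 2 higher in LRRK2 KO TE.

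With 1 library left out, the counts higher and lower at 1.2-fold ran from 0 to 7 and 0 to 7 (footprinting), 12 to 15 and 8 to 15 (RNA-Seq) and 1 to 14 and 3 to 15 (TE) in GS LRRK2 TG. In GS/DA LRRK2 TG they ran from 0 to 3 and 0 to 10, 7 to 14 and 10 to 19, and 0 to 18 and 1 to 15. LRRK2 KO had 2 to 3 and 1 to 6, 1 to 8 and 0 to 11, and 0 to 10 and 3 to 11. No share of all transcripts is given beside these counts. Depth limits Ndufaf4, Ndufaf2 and Ndufaf1 most, with as few as 50 reads.

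Since recovered libraries carry no replicate number, those of a replicate block were matched by how libraries differ (Spearman 0.739 in GS/DA LRRK2 TG footprinting, -0.977 in its RNA-Seq, where the shallower was matched with the deeper, 0.762 and 0.684 in LRRK2 KO), a hint from the data and not the design. With the block, limma passed 159 transcripts in GS/DA LRRK2 TG footprinting and 1 in RNA-Seq, 10 and 12 in LRRK2 KO, 0 in TE, and in each 0 complex I genes. The opposite matching gave 7 in GS/DA LRRK2 TG footprinting and 0 elsewhere. Medians could not move (-0.05, -0.10 and 0.05, and -0.02, -0.01 and -0.04), since each block holds 1 library of each group, so they say nothing on stability. With the opposite matching, medians of the pairs over complex I genes were 0.09 and -0.18 in GS/DA LRRK2 TG footprinting, against -0.01 and -0.11.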
